A study of Mus musculus with 13 samples.

Results

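The 10 genes described here belong to the integrated stress response: the transcription factor genes Atf4, Atf5 and Ddit3, the feedback genes Trib3 and Ppp1r15a, the amino acid enzyme genes Psat1 and Asns, the glutathione-degrading enzyme gene Chac1, and Sesn2 and Ddit4, whose products restrain the growth kinase mTORC1. They were taken by name from a table of 20054 genes, and all 10 were found in it. They were chosen with their values in the comparison of the groups already known, so their differences between the groups, and the calls of the fit across all genes given for them, are a description and support nothing. The libraries came from whole esophagus of C57/BL6 mice, 6 labelled WT and 7 labelled dblGATA. Both groups were given the carcinogen 4-NQO (4-nitroquinoline 1-oxide) over 8 weeks and only the vehicle, propylene glycol, over the next 8 weeks, a stage labelled pre-cancer. In dblGATA mice a GATA-binding site of the Gata1 gene that the eosinophil lineage depends on is deleted, and every cell of the animal carries the deletion. The labels used here give no age and do not tie libraries to animals, so a p-value reflects the variation among libraries, part of which may be technical.

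The integrated stress response begins when a stress kinase phosphorylates the translation factor eIF2, which lowers general protein synthesis while the mRNA of ATF4 is translated more. ATF4, controlled in large part at translation, then switches on genes for amino acid synthesis and uptake and for tRNA charging, together with ATF5, CHOP (the product of Ddit3) and TRIB3. In squamous epithelium such as the lining of the mouse esophagus the pathway is known to respond to amino acid shortage and to misfolded protein.

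ATF4 is known to bind, with a C/EBP partner, a C/EBP-ATF response element. That motif, TGATGNAA, was searched on both strands in RefSeq promoters (GRCm38.p6) from 250 bases before to 50 bases after each start. It was present in 1304 of 32851 such windows (3.97%). All 10 genes matched the RefSeq table, with 12 windows, and the motif was found for Chac1, 193 bases before the start, for Asns, 23 bases before it, and for Trib3, 15 bases after it. The cyclic AMP response element TGACGTCA was found in 588 of the windows (1.79%), and among the 10 genes in that of Ppp1r15a, 12 bases before the start. Neither motif was in the windows of Psat1 and Ddit3, the genes whose levels did not overlap between the groups, and their sequences are shown beside those of the motif-bearing Chac1, Asns and Ppp1r15a. A match is only a description of the letters, and its absence says nothing about the factor. The stretches are chr2:119351003-119351102 on the plus strand (bases 239 to 140 before the start), chr6:7693210-7693309, chr7:45526269-45526368 and chr19:15925060-15925159 on the minus strand, and chr10:127290693-127290792 on the plus strand (each bases 100 to 1 before the start, for Psat1 the first of 2 listed starts). Capitals mark the motif, and the sequences run 5′ to 3′.
Chac1: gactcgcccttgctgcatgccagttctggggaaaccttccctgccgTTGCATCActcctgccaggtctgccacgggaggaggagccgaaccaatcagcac
Asns: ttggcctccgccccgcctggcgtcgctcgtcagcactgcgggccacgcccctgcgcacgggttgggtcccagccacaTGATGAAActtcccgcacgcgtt
Ppp1r15a: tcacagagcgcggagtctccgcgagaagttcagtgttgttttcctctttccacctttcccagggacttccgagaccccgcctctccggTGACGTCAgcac
Psat1: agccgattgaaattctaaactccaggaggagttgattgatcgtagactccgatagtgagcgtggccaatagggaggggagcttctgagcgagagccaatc
Ddit3: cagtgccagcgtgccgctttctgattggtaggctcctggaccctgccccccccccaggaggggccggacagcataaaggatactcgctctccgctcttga

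The libraries held 66339087 to 98195869 counts. Levels are counts scaled to the library total after TMM (CPM), and "called" means an adjusted p under 0.05 in edgeR's quasi-likelihood test across all genes. Of 16599 genes that passed a filter on low counts, 1179 (7.10%) were called higher and 1060 (6.39%) lower in dblGATA. Counts of called genes in the lists below are to be read against these shares. The library WT 4 had 10.1% of its counts on the ribosomal RNA gene Rn18s and WT 6 had 16.9%, against at most 3.24% in the others. Without these 2 libraries, edgeR called 0 of all genes (3542 at an unadjusted p under 0.05). With the Rn18s share as a covariate it also called 0 (3927 at an unadjusted p under 0.05). Single libraries moved the count of called genes, to 396 without WT 4, 357 without WT 6, 754, 535 and 546 without dblGATA 3, 5 and 7, 1206 without WT 1 and 3828 without WT 2. Tg, a thyroid gene, reached 14202 CPM and Muc5b, a mucous gland gene, 4504 CPM in single WT libraries, against WT medians of 0.271 and 0.0917 CPM. As a check of the labels, Gata1 was too low to pass the filter, and the deleted site lies outside its transcript. Gata1 had 106 counts in WT 3 and from 1 (dblGATA 2) to 10 (WT 5) in the other libraries. Ccr3, the eotaxin receptor of eosinophils, was lower in dblGATA, at 0.139 ± 0.116 CPM (SD, n = 7) against 0.680 ± 0.338 CPM in WT (SD, n = 6; edgeR adjusted p = 0.0179). The groups overlapped in Ccr3, with dblGATA 6 at 0.387 CPM above WT 4 at 0.38 and WT 5 at 0.25 CPM. The check therefore holds for the groups and not for each library. Xist, an RNA of the inactive X chromosome of female cells, was at 0.239, 143 and 828 CPM in WT (lowest, median and highest). In dblGATA it was at 0.279, 3.25 and 710 CPM, so the sexes were probably mixed and not matched between the groups. Some libraries had intermediate Xist levels, such as WT 4 at 48.9 CPM and dblGATA 5 at 10.5 CPM, so their sex is unclear. The main fit held no term for sex, and with Xist as a covariate edgeR called 1569 genes.

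The fold changes of the 10 genes had no common direction. Those of Ddit3 and Atf5 lay furthest below 0 and those of Psat1, Asns and Trib3 furthest above it, and that of Atf4 was close to 0. Asns and Trib3 were not called. All 10 passed the filter on low counts. Psat1 was called higher and Ddit3 and Atf5 were called lower, which is 3 of 10 genes where 13.5% of all genes tested were called. Nothing is read from that count, because the genes were picked from the same contrast. Fold changes below are log2 of dblGATA over WT, with the standard error (SE) over 6 and 7 libraries. Over the 10 genes their median was 0.08 (5 positive, 5 negative, from -0.50 to 0.44). Over all genes tested the median was -0.00, and the middle 50% of genes lay between -0.19 and 0.15.

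**Figure D1:**
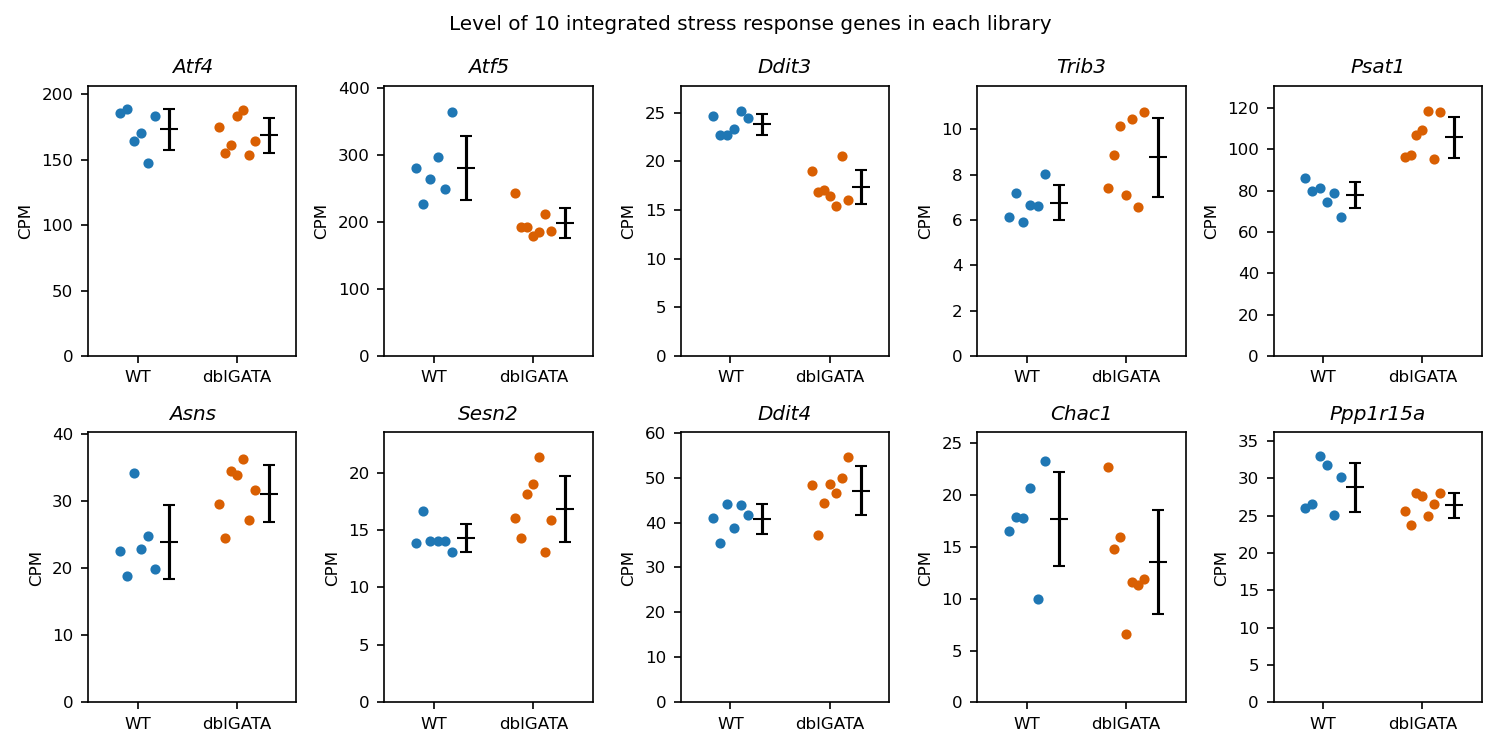
Level of each of the 10 genes in CPM (linear axis from 0). Each point is a library, WT in blue and dblGATA in orange, and bars give the mean and SD. Psat1 lay at 95.6 CPM or more in every dblGATA library and at 85.9 CPM or less in every WT library, and Ddit3 showed the opposite order.

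Atf4, which encodes the transcription factor at the centre of the response, stood at 148 CPM in the lowest WT library, 177 at the median and 188 in the highest, and at 154, 164 and 188 CPM in dblGATA. The groups overlapped across almost their whole range, with a log2 fold change of -0.04 ± 0.07 (SE). Ddit3, which encodes the ATF4-induced factor CHOP, stood at 22.7, 23.9 and 25.2 CPM (lowest, median and highest) in WT. In dblGATA it stood at 15.5, 16.9 and 20.5 CPM. All 7 dblGATA libraries lay below all 6 WT libraries, and the log2 fold change was -0.46 ± 0.07 (SE). Psat1 and Ddit3 were the 2 of 10 genes whose groups did not overlap, where 2.70% of all genes tested did not (1.99% higher and 0.705% lower in dblGATA).

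Atf5, whose product is a bZIP factor translated under the same eIF2 control, had the widest WT range of the transcription factors, 228, 273 and 364 CPM. In dblGATA it was 180, 192 and 244 CPM, with a log2 fold change of -0.50 ± 0.10 (SE). In 6 of 7 dblGATA libraries Atf5 lay below every WT library. The exception was dblGATA 1, at 244 CPM, which lay above WT 2 at 228 CPM.

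Trib3 encodes a pseudokinase that binds ATF4 and CHOP and damps their activity. It was among the least abundant by read count, at 5.90, 6.65 and 8.03 CPM in WT and 6.57, 8.86 and 10.8 CPM in dblGATA. Its log2 fold change was 0.37 ± 0.13 (SE), with 4 dblGATA libraries above all WT libraries and 3 within their range. Ppp1r15a encodes GADD34, the stress-induced phosphatase subunit that reverses eIF2 phosphorylation. Its levels were 25.1, 28.4 and 33.0 CPM in WT and 23.7, 26.6 and 28.0 CPM in dblGATA, with a log2 fold change of -0.13 ± 0.07 (SE). The groups overlapped, although none of the 7 dblGATA libraries reached the WT median.

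Psat1, the aminotransferase of the serine synthesis pathway, was at 67.2, 79.5 and 85.9 CPM in WT. In dblGATA it was at 95.6, 107 and 118 CPM. Every dblGATA library lay above every WT library, and the log2 fold change was 0.44 ± 0.07 (SE). Asns, the enzyme that makes asparagine, was at 18.8, 22.7 and 34.2 CPM in WT and 24.5, 31.7 and 36.3 CPM in dblGATA, a log2 fold change of 0.38 ± 0.13 (SE). All 7 dblGATA libraries exceeded the WT median, but WT 3, at 34.2 CPM, lay inside the upper dblGATA range.

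Chac1, whose product degrades glutathione, varied most among libraries of a group. It ranged over 9.93, 17.8 and 23.3 CPM in WT and 6.61, 11.9 and 22.7 CPM in dblGATA. The low WT value was WT 5 and the high dblGATA value was dblGATA 1, so the groups overlapped widely and the log2 fold change of -0.38 carried an SE of 0.24. Sesn2 encodes a leucine sensor that holds mTORC1 back, and it was at 13.1, 14.1 and 16.7 CPM in WT and 13.1, 16.0 and 21.3 CPM in dblGATA, a log2 fold change of 0.23 ± 0.10 (SE). In 3 dblGATA libraries Sesn2 exceeded all WT libraries. Ddit4 encodes REDD1, an mTORC1 inhibitor also induced by hypoxia and glucocorticoids. It was at 35.4, 41.4 and 44.2 CPM in WT and 37.1, 48.3 and 54.6 CPM in dblGATA, a log2 fold change of 0.20 ± 0.08 (SE), with 6 dblGATA libraries above all WT libraries and dblGATA 2 at 37.1 CPM within the WT range.

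**Figure D2:**
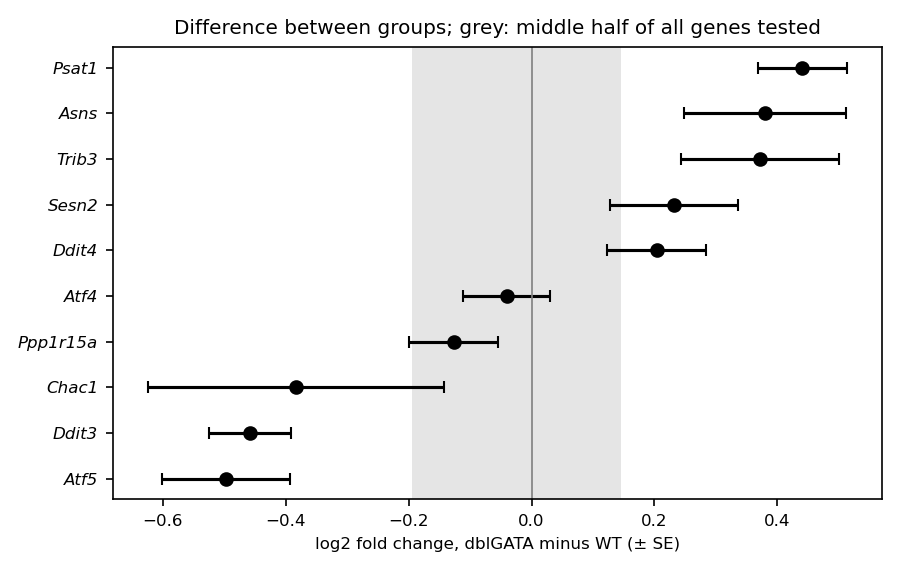
Log2 fold change of each gene (dblGATA minus WT, bars ± SE, 6 and 7 libraries), with the middle 50% of all genes tested in grey. Psat1, Asns, Trib3, Sesn2 and Ddit4 lay to the right of the grey band, Chac1, Ddit3 and Atf5 to its left, and Ppp1r15a and Atf4 within it.

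The authors' deposited table gave log2 fold changes close to these, from -0.51 for Atf5 and -0.44 for Ddit3 to 0.44 for Psat1, with -0.05 for Atf4. Of the 10 genes, 5 in the authors' deposited table, Trib3 and Asns besides Psat1, Ddit3 and Atf5, had an adjusted p under 0.05, where 18.2% of the genes with an adjusted p there did. How many reads of the 10 genes could belong to neighbours was not measured. In the mouse annotation GENCODE M21 on GRCm38, exons of Ddit3 share 68 bases (3.97% of its exon bases) with Mars and 13 bases with Gm4189, a gene not analysed here, both on the opposite strand, and those of Atf5 share 82 bases (4.11%) with Nup62 and Il4i1. Ppp1r15a shares 12 bases with Tulp2. The library kit marks strand, but whether counting used it is not given in the sources used here. None of these neighbours was called, at log2 fold changes of 0.11 for Mars1 (the table's name for Mars), 0.12 for Nup62, 0.31 for Il4i1 and -0.09 for Tulp2. Psat1 has a partial processed pseudogene, and how shared reads were assigned is not given either.

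Ratios of counts within a library do not depend on the scaling between libraries. They follow from the levels above and are no separate result. The count of Psat1 was 2.75 to 3.58 times that of Ddit3 in WT (median 3.34) and 4.66 to 7.66 times in dblGATA (median 6.25). Psat1 to Atf5 ran from 0.184 to 0.351 in WT and from 0.395 to 0.642 in dblGATA. Psat1 to Atf4 was 0.366 to 0.535 in WT and 0.551 to 0.718 in dblGATA. Ddit3 to Atf4 overlapped, at 0.120 to 0.171 in WT and 0.0823 to 0.134 in dblGATA, as did Trib3 to Ddit3 (0.249 to 0.329 against 0.320 to 0.675) and Asns to Ddit3 (0.810 to 1.51 against 1.32 to 2.35). Such ratios of counts show how a pair shifted between libraries and not the relative amounts of the mRNAs, since the genes differ in length.

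How the genes varied among libraries of the same group was not used to choose them. The mean of each group was taken away from log2 CPM, and Pearson's r was computed over the 13 libraries for all 45 pairs. The median r was 0.03, with 23 pairs positive and 6 above 0.5, so the 10 genes did not vary as a single block. The libraries share their depth and tissue makeup across all genes, and these values are descriptions without a test. The highest r was between Atf5 and Chac1 (0.63), followed by Psat1 and Sesn2 (0.61) and by Atf4 and Sesn2 (0.60). Without the 2 libraries farthest from the median of 1 gene of the pair (Atf5, Sesn2 and Atf4 in turn) these became 0.35, 0.40 and 0.63. Extreme libraries of the other gene stayed in. The lowest were Ddit3 with Sesn2 (-0.70), Atf5 with Psat1 (-0.69), Ddit3 with Psat1 (-0.62) and Ddit3 with Trib3 (-0.60). Without the 2 libraries farthest from the median of the first gene named, they became -0.56, -0.40, -0.46 and -0.25. Ddit3 and Trib3 had r of 0.16 within WT and -0.76 within dblGATA. Atf5 and Psat1 opposed each other within each group, with r of -0.73 in WT and -0.70 in dblGATA. Ddit3 and Psat1 opposed each other in dblGATA (-0.84) and hardly in WT (-0.11), a difference between groups that was not tested.

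Split by the sign of the fold change, a split that rests on the values the genes were chosen by, the 5 genes with a positive sign (Psat1, Asns, Trib3, Sesn2 and Ddit4) had positive r in 7 of 10 pairs (median 0.32). The 5 with a negative sign (Ddit3, Atf5, Chac1, Ppp1r15a and Atf4) had positive r in 8 of 10 pairs (median 0.15), with Ddit3 and Atf4 at -0.41. Of 25 pairs across the signs, 17 were negative (median -0.09), and the exceptions included Atf4 with Sesn2 (0.60), Ppp1r15a with Asns (0.47) and Ppp1r15a with Ddit4 (0.38).

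**Figure D3:**
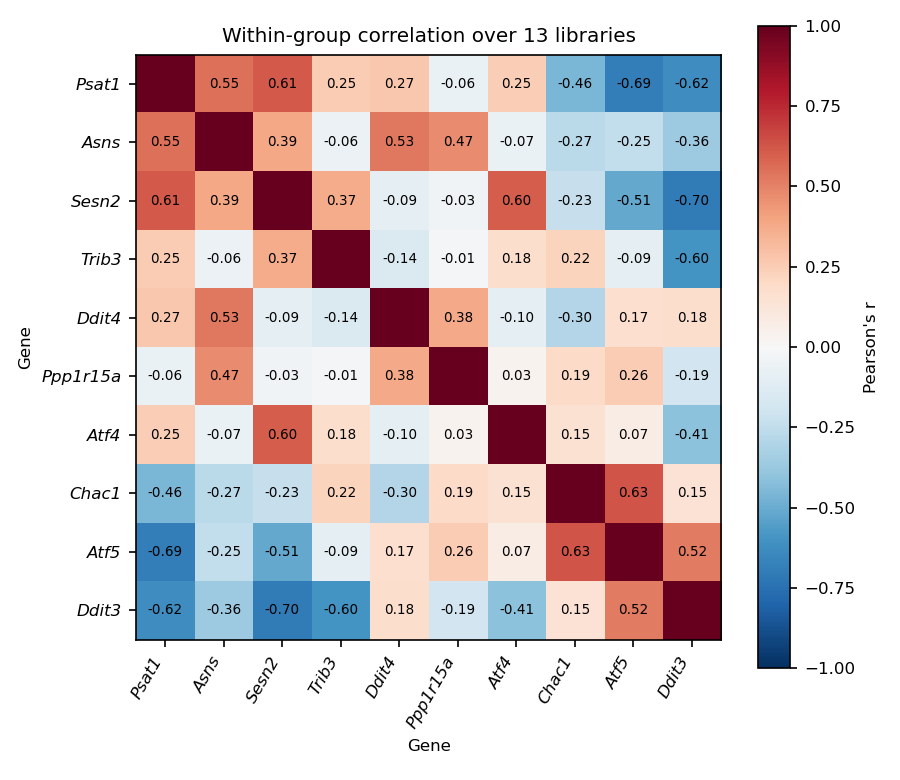
Pearson's r between each pair of genes over 13 libraries, after the group mean was taken from log2 CPM (red positive, blue negative). Psat1, Asns and Sesn2 at the upper left are positive with each other, and Ddit3 and Atf5 are negative with Psat1 and Sesn2.

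The makeup of the tissue moved with several of these genes. Over all genes tested, 7.10% were called higher and 6.39% lower. Of 7 squamous epithelium markers, 4 rose in dblGATA (Krt5, Krt14, Trp63 and Sox2) and none fell, and their summed level was 23100 to 37100 CPM in WT and 33300 to 64100 CPM in dblGATA. Of 8 skeletal muscle markers, 4 fell (Mylpf, Tnnc2, Tnni2 and Myl1) and none rose, with sums of 19700 to 37500 CPM in WT and 14800 to 30800 CPM in dblGATA. No marker of either list was at 0, and the wall of the mouse esophagus is known to hold both tissues. In bulk tissue, fewer cells of a type and less RNA per cell cannot be told apart. Of the other markers, 1 of 4 smooth muscle genes (Des, log2 fold change -0.54) fell, and Myh11, Cnn1 and Acta2 were not called (-0.08, -0.22 and -0.19). Of 4 eosinophil genes, 1 (Ccr3) fell. Of 4 plasma cell genes, 1 (Sdc1, 0.46) rose, and Jchain, Mzb1 and Xbp1 were not called (-0.35, -0.87 and 0.07). Des and Sdc1 alone therefore do not show a change in smooth muscle or plasma cells. No fibroblast or adipocyte gene of 4 each was called (0 and 2 at an unadjusted p under 0.05). Eosinophil markers summed to 0.840 to 14.2 CPM in WT and 0.256 to 1.52 CPM in dblGATA, and their part in the levels of the 10 genes was not tested. Of these markers, Prg2 alone reached 10.7 CPM in a single WT library, against a WT median of 0.141 CPM.

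Within groups, the mean log2 CPM of the epithelium markers went with Psat1 (r = 0.76, rho = 0.71, and 0.67 without the 2 libraries farthest from the median of that score). It also went with Asns (r = 0.71, rho = 0.75, and 0.79). With Ddit3 it had r = -0.68 and rho = -0.54, but -0.37 without those 2 libraries, and with Atf5 r = -0.52 and -0.30. The muscle marker score went with Atf5 (r = 0.74, rho = 0.71, and 0.70 without 2 libraries), with Ddit3 (r = 0.56, rho = 0.74, and 0.38) and inversely with Psat1 (r = -0.59, rho = -0.59, and -0.40). The log2 Rn18s share had r = -0.55 with Psat1, -0.47 with Asns, 0.42 with Atf5 and -0.15 with Ddit3. In WT, the 2 libraries with the highest Rn18s shares had the highest Atf5 and the lowest Psat1 levels. Each r and rho is over 13 libraries and describes them, since both scores and the Rn18s share come from the same library as the gene. The epithelium score was 8.87 to 9.26 in WT and 9.28 to 9.74 in dblGATA. It did not overlap between the groups, so the genotype and the epithelial share cannot be told apart for Psat1, Asns, Ddit3 or Atf5. With the muscle score as a covariate, the log2 fold change was -0.28 ± 0.10 (SE) for Atf5, -0.37 ± 0.08 for Ddit3 and 0.33 ± 0.08 for Psat1. With the epithelium score as a covariate it was -0.19 ± 0.17 for Atf5, -0.24 ± 0.10 for Ddit3, 0.15 ± 0.10 for Psat1 and -0.13 ± 0.18 for Asns. Asns, Sesn2 (-0.04) and Chac1 (0.07) changed sign in that fit, and none of the 10 genes did in the other 26 settings tried.

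**Figure D4:**
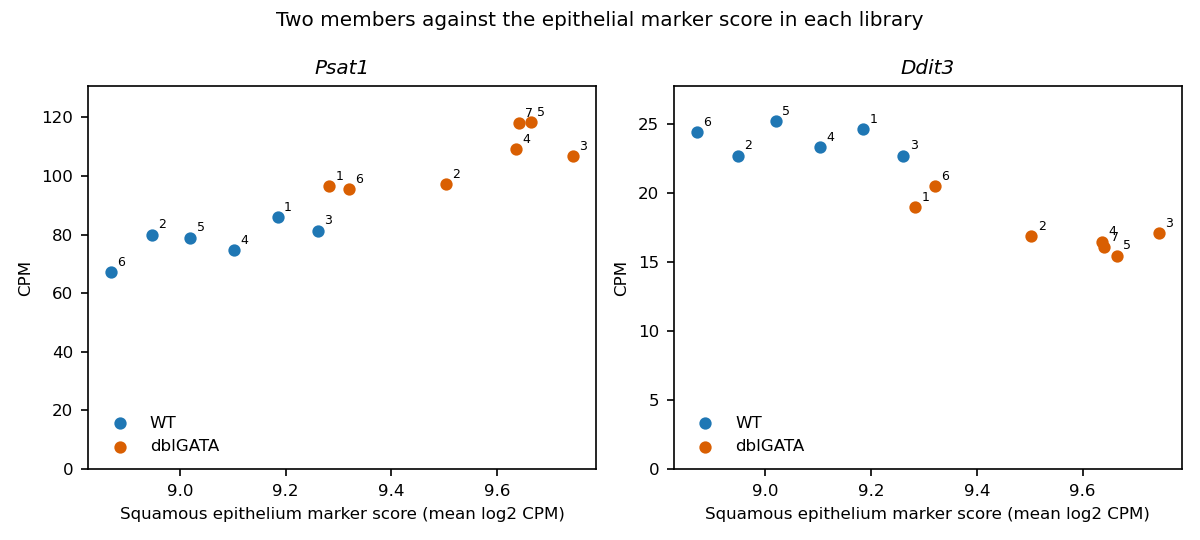
Psat1 and Ddit3 in CPM against the squamous epithelium score (mean log2 CPM of 7 markers) in each library, numbered by replicate, WT in blue and dblGATA in orange. The WT libraries end at a score of 9.26 and the dblGATA libraries begin at 9.28, and Psat1 is higher and Ddit3 lower at the higher scores.

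Upstream of ATF4, no gene of the kinases, eIF2 subunits, eIF2B subunits and phosphatases was called by edgeR (0 of 23, with 3 higher and 1 lower at an unadjusted p under 0.05). Over all genes tested, 13.5% were called. limma-voom also called 0 and DESeq2 called 1 lower. The largest log2 fold changes were those of Eif2ak2, the kinase activated by double-stranded RNA (0.25 ± 0.11, SE, edgeR adjusted p = 0.137), of Eif2s3x, an eIF2 subunit gene on the X chromosome (0.20 ± 0.14, edgeR adjusted p = 0.342), and of Ppp1r15b, the constitutive counterpart of Ppp1r15a (0.19 ± 0.08, edgeR adjusted p = 0.137). The list had a median of 0.06. Phosphorylation of eIF2 was not measured.

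Of 156 tested genes in 8 further lists of the pathway and its surroundings, 21 rose and 9 fell (19.2%, against 13.5% of all genes tested), with a median log2 fold change of 0.07 against -0.00 over all genes. These lists were drawn up with earlier results of these data known, and all 30 calls were lost without WT 4 and WT 6 together (41 genes at an unadjusted p under 0.05) or with the Rn18s covariate (44 at an unadjusted p under 0.05). They were also lost with either tissue score as a covariate (34 at an unadjusted p under 0.05 with muscle, 3 with epithelium). Leaving out WT 4 gave 8 calls and leaving out WT 6 gave 6. Leaving out dblGATA 3 gave 15, dblGATA 5 gave 12 and dblGATA 7 gave 11.

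**Figure D5:**
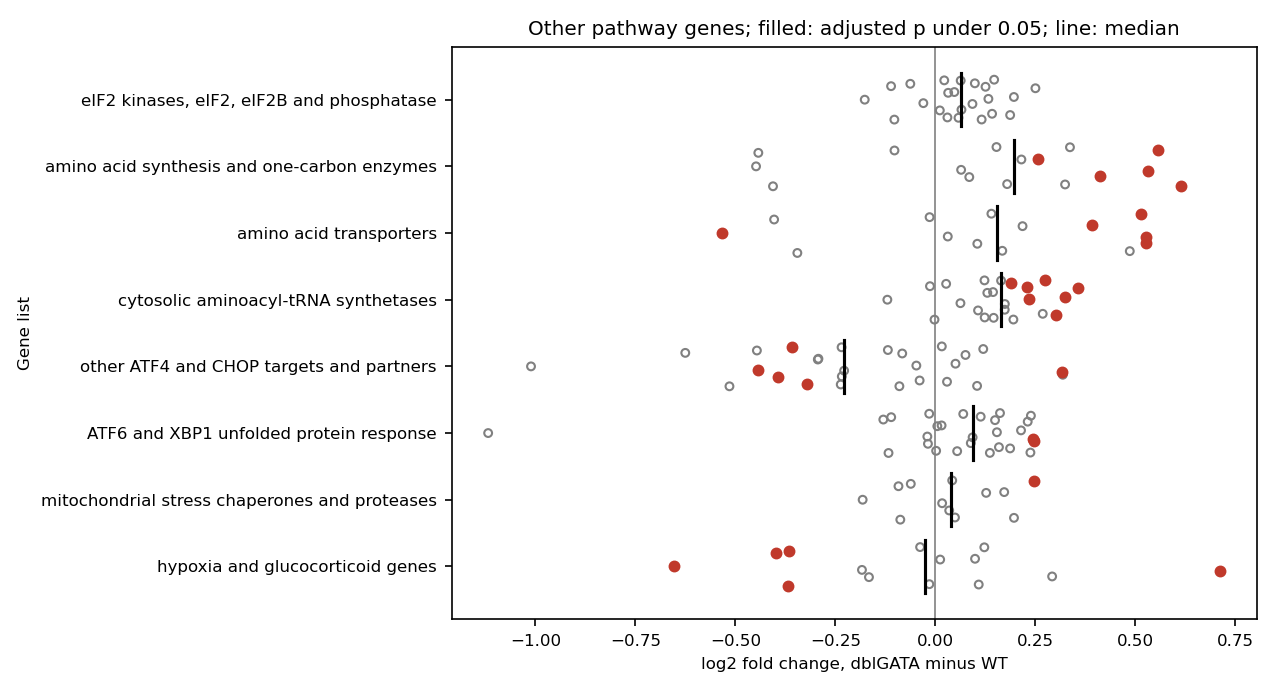
Log2 fold change (dblGATA minus WT) of 156 other genes of the pathway and its surroundings by list, with called genes filled in red and list medians as black lines. Calls in the lists for amino acid enzymes and tRNA synthetases lie to the right of 0, and 4 of the 5 among other ATF4 and CHOP targets lie to its left.

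Amino acid synthesis and one-carbon enzymes had 5 of 16 genes higher and 0 lower (1 lower at an unadjusted p under 0.05, and 1 lower by DESeq2), where 7.10% of all genes were called higher, and the median was 0.20. Phgdh, the dehydrogenase just before Psat1 in serine synthesis, rose from a mean of 92.1 ± 13.8 CPM (SD, 6 WT libraries) to 123 ± 11.6 CPM (SD, 7 dblGATA libraries), by 0.41 ± 0.09 in log2 (± SE; edgeR adjusted p = 0.0214). Psph, the phosphatase after Psat1, was at 16.3 and 17.0 CPM (log2 fold change 0.06, edgeR adjusted p = 0.491). Shmt1, the cytosolic serine hydroxymethyltransferase, rose by 0.62 ± 0.13 (edgeR adjusted p = 0.0174), from 13.2 ± 2.01 to 20.3 ± 3.77 CPM, with 6 of 7 dblGATA libraries above all WT libraries. Its mitochondrial counterpart Shmt2 rose by 0.26 ± 0.08 (edgeR adjusted p = 0.04999). Aldh1l2 and Mthfd1l, mitochondrial folate enzymes, rose by 0.53 ± 0.11 and 0.56 ± 0.15 (edgeR adjusted p = 0.0174 and 0.0291). Shmt1 and Aldh1l2 were called in each of the 13 fits that left out 1 library. Phgdh lost it without WT 4 or WT 6 (highest edgeR adjusted p = 0.0567), Mthfd1l also without dblGATA 3, 5 or 7 (0.0694), and Shmt2 kept it only without dblGATA 2 or dblGATA 6 (0.101).

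Amino acid transporters had 4 of 14 genes higher and 1 lower, where 7.10% and 6.39% of all genes tested were, with a median of 0.15. Slc1a4, a neutral amino acid exchanger, rose from a mean of 44.9 ± 5.73 CPM (SD, 6 WT libraries) to 64.7 ± 9.75 CPM (SD, 7 dblGATA libraries), by 0.53 ± 0.11 in log2 (± SE; edgeR adjusted p = 0.0172), and all 7 dblGATA libraries lay above all WT libraries. Slc7a1, the cationic amino acid transporter, rose by 0.51 ± 0.11 (edgeR adjusted p = 0.0179). Slc7a5 and Slc3a2, the light and heavy chains of a leucine transporter, rose by 0.53 ± 0.12 and 0.39 ± 0.09 (edgeR adjusted p = 0.0223 and 0.0197). Slc43a1, another carrier of large neutral amino acids, fell from 4.47 ± 0.914 to 3.09 ± 0.485 CPM (edgeR adjusted p = 0.0300). Slc7a11, the cystine importer, was at 129 and 180 CPM and was not called (log2 fold change 0.49 ± 0.17, edgeR adjusted p = 0.0689). It was called without WT 2, without dblGATA 6 and by DESeq2 (DESeq2 adjusted p = 0.0284). Slc1a4 and Slc7a1 kept the call in each of the 13 fits without 1 library. Slc3a2 lost it without WT 4 or WT 6 (highest edgeR adjusted p = 0.0533), Slc7a5 also without dblGATA 5 or 7 (0.0588), and Slc43a1 without WT 3, 4 or 6 or dblGATA 4, 5 or 7 (0.0752).

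Of 23 genes for cytosolic aminoacyl-tRNA synthetases, their scaffold proteins (Aimp1 and Aimp2) and the tRNA exporter Xpot, 7 rose and 0 fell (0 lower at an unadjusted p under 0.05, by DESeq2 or by limma-voom), with a median of 0.16 and 20 of 23 positive. Over all genes tested, 7.10% were called higher. Xpot rose from a mean of 58.0 ± 2.77 CPM (SD, 6 WT libraries) to 70.2 ± 6.18 CPM (SD, 7 dblGATA libraries), by 0.28 ± 0.06 (SE, edgeR adjusted p = 0.0213), with no overlap between the groups. The synthetase genes Tars and Rars, for threonine and arginine, rose by 0.36 ± 0.09 and 0.33 ± 0.08 (edgeR adjusted p = 0.0268 and 0.0272). Hars, Qars and Farsa, for histidine, glutamine and a phenylalanine subunit, rose by 0.30, 0.23 and 0.19 (edgeR adjusted p = 0.0252, 0.0297 and 0.0432). The remaining called gene was Gars, for glycine (0.23, edgeR adjusted p = 0.0461), which kept the call in 3 of 13 fits without 1 library (highest edgeR adjusted p = 0.112). The motif TGATGNAA, held by 3.97% of all windows, was in those of 5 of the 16 genes of this list that matched RefSeq (Aars, Gars, Iars, Tars and Yars). It was in those of 6 of 24 other ATF4 and CHOP targets (Vldlr and Nupr1 among them), 2 of 12 amino acid enzymes, 2 of 9 transporters and 0 of 23 genes of the ATF6 and XBP1 list. These counts are of genes with the motif in any of their windows, and some genes have several (37 windows for the 24 targets). They are therefore not in the same unit as the share of windows. Without WT 6 none of the 6 genes named before Gars was called, and without WT 4 only Hars was. Without dblGATA 3, 5 or 7 Hars, Tars, Rars, Qars and Farsa lost the call, and the highest edgeR adjusted p over these fits was 0.0976, for Farsa. Farsa kept it in 3 of 13 fits, those without WT 2, dblGATA 2 or dblGATA 6, and Qars also lost it without WT 1.

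Among other targets and partners of ATF4 and CHOP, 1 of 27 tested genes was called higher and 4 lower, where 6.39% of all genes were called lower, and the median was -0.23 with 8 positive. Ero1a, the endoplasmic reticulum oxidase that CHOP is known to induce, rose from a mean of 40.0 ± 2.16 CPM (SD, 6 WT libraries) to 49.9 ± 6.31 CPM (SD, 7 dblGATA libraries), by 0.32 ± 0.08 (SE, edgeR adjusted p = 0.0238). Nfe2l1, which encodes a factor that drives proteasome genes, fell from 652 ± 61.0 to 497 ± 48.2 CPM (log2 fold change -0.39 ± 0.08, edgeR adjusted p = 0.0179). Vldlr, a lipoprotein receptor, Vegfa, an angiogenic growth factor, and Klhl24, a ubiquitin ligase adaptor, had log2 fold changes of -0.44, -0.36 and -0.32 (edgeR adjusted p = 0.0196, 0.0293 and 0.0344). Of the best-known targets, Atf3 was at 10.3 and 11.2 CPM (log2 fold change 0.12 ± 0.29, edgeR adjusted p = 0.809), and Nupr1, a stress-induced chromatin protein gene, was not called (-1.01 ± 0.36, edgeR adjusted p = 0.0754). Nupr1 was at 31.0, 37.1 and 158 CPM in WT (lowest, median and highest) and 25.3, 27.3 and 33.2 CPM in dblGATA, and the high value was WT 3 alone. Without WT 3 the log2 fold change of Nupr1 was -0.36 ± 0.07 and it was called (edgeR adjusted p = 0.0207). Nfe2l1 was called in all 13 such fits. Vldlr lost it without WT 4 or WT 6 (highest edgeR adjusted p = 0.0533), Ero1a also without dblGATA 7 (0.0605), Vegfa without either WT library or dblGATA 3, 5 or 7 (0.0703), and Klhl24 also without WT 1 or dblGATA 4 (0.0855).

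The ATF6 and XBP1 arms of the unfolded protein response, which handle misfolded protein beside the ATF4 arm, had 2 of 27 genes higher and 0 lower (0 lower at an unadjusted p under 0.05, by DESeq2 or by limma-voom), with a median of 0.09. The share higher, 7.41%, was near the 7.10% of all genes tested. Atf6b, a paralogue of Atf6, rose by 0.24 ± 0.06 (SE, edgeR adjusted p = 0.0238), and Canx, the lectin chaperone calnexin, by 0.25 ± 0.07 (edgeR adjusted p = 0.0330). Hspa5, the main chaperone of the endoplasmic reticulum, was at 373 and 425 CPM and was not called (0.19 ± 0.11, edgeR adjusted p = 0.242). Of 12 mitochondrial stress chaperones and proteases, Clpx, the unfoldase of a matrix protease, rose by 0.25 ± 0.07 (edgeR adjusted p = 0.0299), and the list's median was 0.04. Atf6b lost the call without WT 4 or 6 or dblGATA 5 or 7 (highest edgeR adjusted p = 0.0613). Canx and Clpx each kept it in 6 of 13 fits, losing it without WT 1, 4 or 6 or dblGATA 3, 5 or 7, and also without dblGATA 4 for Canx (0.0799) and dblGATA 2 for Clpx (0.0681).

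Because Ddit4 also answers to hypoxia and glucocorticoids, 14 genes of those responses were set beside it. Of these, 1 rose and 4 fell, where 7.10% and 6.39% of all genes tested did, with a median of -0.03. Slc2a1, the glucose transporter GLUT1, rose from a mean of 92.3 ± 17.1 CPM (SD, 6 WT libraries) to 151 ± 35.0 CPM (SD, 7 dblGATA libraries), by 0.71 ± 0.15 (SE, edgeR adjusted p = 0.0189). Bnip3, a hypoxia-induced mitophagy receptor, had a log2 fold change of -0.40 ± 0.10 (edgeR adjusted p = 0.0264). Of 6 glucocorticoid-induced genes Zbtb16, Klf9 and Tsc22d3 fell, with log2 fold changes of -0.65, -0.37 and -0.37 (edgeR adjusted p = 0.0195, 0.0288 and 0.0355). Sgk1, Per1 and Fkbp5 were not called, at 0.29, 0.01 and -0.04 (edgeR adjusted p = 0.0586, 0.953 and 0.879). However, Sgk1 was called higher without WT 3, by DESeq2 (DESeq2 adjusted p = 0.0358) and with the authors' normalized signal (limma adjusted p = 0.0349). Slc2a1 kept the call in all 13 fits without 1 library and Zbtb16 in 12, losing it without WT 6 (0.0506). Bnip3 lost it without WT 4 or 6 or dblGATA 3, 5 or 7 (highest edgeR adjusted p = 0.0645), Klf9 also without WT 1 (0.0687), and Tsc22d3 also without dblGATA 2 or 4 (0.0782).

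In the authors' deposited pathway table, whose values are the authors' own, tRNA charging had a -log10 p of 2.18 and a z score of 2.71. In the authors' deposited table the serine and glycine synthesis superpathway had 2.96 with a z score of 2, the unfolded protein response 2.17 with a z score of 1, mTOR signalling 3 with a z score of 0.522, and EIF2 signalling a -log10 p of 0 with a z score of 1.41. The median -log10 p over the authors' deposited table was 1.21.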

How the data were processed

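RNA of whole esophagus was measured in 13 libraries, made from poly-A RNA with a stranded kit per the labels' protocols. The whole numbers that the authors deposited were taken as rounded estimated counts, because the factors behind the deposited normalized signal varied by gene: 25.8% of 13122 genes with at least 100 counts had a factor over 10% off their library's median. The submitters' processing notes name DESeq2 1.34.0. No source used here states the aligner, the counter or the build. The authors' own log2 values, scores and p-values, and the -log10 p-values and z scores of their deposited pathway table, were used for description only.

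The 10 genes, the other gene lists and the marker lists were chosen with earlier results of these data known. Genes were kept by filterByExpr (minimum count 10, minimum total 15) and tested with edgeR 4.0.16 (R 4.3.3; TMM, robust glmQLFit and glmQLFTest, Benjamini-Hochberg, threshold 0.05). The SE is the log2 fold change divided by the root of F. The fit was tested on simulated counts of 16533 genes and recovered 67% of 1.5-fold and 88% of 2-fold changes. Each rate is over 100 changed genes with a mean of at least 1 CPM. The simulation drew each gene independently, without effects shared across genes such as the Rn18s share or tissue makeup. It therefore does not show how far the calls hold under such effects. Correlations used log2 CPM with a prior count of 2. Depth was 66339087 to 98195869 counts, and libraries of a group differed by more than sampling noise (chi-square per degree of freedom at least 64.3). Named in each list were up to 6 called genes by smallest p, or the 3 largest changes where none was called. Psph, Slc7a11, Gars, Atf3, Nupr1, Hspa5, Sgk1, Per1, Fkbp5, Tg and Muc5b were chosen after their values were seen. Alternatives were DESeq2 1.42.0, limma-voom 3.58.1, other scaling and filters, the authors' normalized signal, a replicate block, covariates, and each library left out. The epithelium covariate was added after seeing the data.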

Additional observations from a re-analysis of the deposited data

Results flagged for a closer look

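In 8 of 118 groups of values examined, 1 library lay far from the others of its group, and chance gives about 1 in 20. Among the 10 genes this was Sesn2, at 16.7 CPM in WT 2 against 13.1 to 14.1 CPM in the other WT libraries. Ppp1r15b was at 80.5 CPM in WT 2 against 59.7 to 65.8 CPM, and Zbtb16 was at 14.8 CPM in WT 2 against 22.4 to 24.7 CPM. Eif2s3x, on the X chromosome, was at 204 CPM in WT 6 against 130 to 149 CPM in the other WT libraries. WT 6 also had the highest Xist level of all libraries, 828 CPM, and a link between them was not tested. In dblGATA 1, Bnip3 was at 162 CPM against 113 to 131 CPM in the other dblGATA libraries, and Tsc22d3 was at 74.0 CPM against 42.5 to 52.5 CPM. Nupr1 was at 158 CPM in WT 3, the rest of WT lying at 31.0 to 37.8 CPM, and at 33.2 CPM in dblGATA 6 against 25.3 to 28.1 CPM in the other dblGATA libraries.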

How the results depend on the processing

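The median log2 fold change of the 10 genes (0.08) stayed between -0.05, with the epithelium covariate, and 0.12, and the median within-group r (0.03) between -0.04 and 0.15. The count of all genes called (2239) became 3503 with DESeq2 and 880 with the replicate number as a block, 0 without WT 4 and WT 6 or with the Rn18s, muscle or epithelium covariate (3542, 3927, 1945 and 634 at an unadjusted p under 0.05), and 357 (without WT 6) to 3828 (without WT 2) when 1 library was left out. The 30 other pathway genes called became 46 with DESeq2, 13 with the block, 0 in the same 4 settings, and 6 to 43 when 1 library was left out. Same-numbered libraries did not deviate together (r from -0.10 to 0.13), so no pairing by number was seen, although a small shared effect could be missed. Upper-quartile scaling gave 830 genes higher and 1299 lower, against 1179 and 1060. With the epithelium covariate Tars reversed to -0.017, Gars to -0.067 and Klhl24 to 0.079, and the cause was not tested. With that covariate the log2 fold changes of Psat1 and Ddit3 shrank to 0.15 and -0.24. The spread between libraries of a group, widest for Chac1 (SE 0.24), limits the precision of each fold change.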

Other observations

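Outside the pathway, the genes whose levels within a group went most closely with the mean of the 10 genes were Ankk1 (r = 0.93), a kinase gene, and Chil1 (r = 0.93), which encodes a chitinase-like protein. They were followed by the serine protease gene Prss27, the spermine oxidase gene Smox, the chitinase gene Chit1 and Tmem14c (each r = 0.89), and by the glucose transporter gene Slc5a1 and the protease gene Tmprss11g (each r = 0.88). These values are over 13 libraries and 13795 genes ranked, with no test, and all genes share the depth and tissue makeup of each library. With so many genes ranked over 13 libraries, the highest r can be this large by selection alone. The 10 genes did not vary as a single block (median r 0.03), so their mean is no measure of a shared level. Chil1 ranged from 11.3 to 113 CPM in WT and from 12.5 to 174 CPM in dblGATA, so it differed among libraries of a group far more than any of the 10 genes did. Chit1 was at 160 ± 21.5 CPM (SD, n = 6) in WT and 223 ± 37.9 CPM (SD, n = 7) in dblGATA (edgeR adjusted p = 0.0256), and the other 7 were not called.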
